A study of Homo sapiens with 6 samples.

Results

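The 10 genes described here encode proteins of autophagy and of the lysosome: ULK1, ATG14, WIPI1, MAP1LC3B, GABARAPL1, GABARAPL2, SQSTM1, TFEB, LAMP1 and CTSD. They were taken by gene name from the deposited table, which lists 50868 genes, and all 10 passed the low-count filter that left 14818 genes for testing. Total RNA was sequenced from CUTLL1 cells, a permanent culture derived from a human leukaemia of immature T cells (T-ALL). A lentivirus brought in a short hairpin RNA (shRNA) against AURKB, the gene of the mitotic kinase Aurora B, in 3 biological replicates (shAURKB), or a control hairpin labelled shGFP in 3 others. Both arms were infected and put under puromycin, with 48 h stated as the time of culture and of selection, in serum-containing medium with added glutamine, pyruvate and non-essential amino acids. The sources used here do not give the number of hairpins against AURKB or say whether the infected cells were cloned.

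Macroautophagy encloses cytoplasm in a double membrane and delivers it to the lysosome. The ULK1 kinase complex starts the process, a class III phosphatidylinositol 3-kinase complex directed by ATG14 marks the growing membrane with the lipid PI3P, and WIPI proteins bind that lipid. Small ubiquitin-like proteins of the ATG8 family (the LC3 and GABARAP genes) are then joined to the membrane, where receptors such as SQSTM1 (p62) bring cargo. TFEB is a transcription factor that, when not held in the cytoplasm by mTORC1 signalling, raises many autophagy and lysosome genes through E-box-like elements. RNA sequencing gives mRNA levels alone, so autophagic flux, LC3 lipidation and the location of TFEB were not measured. In bulk RNA, fewer cells expressing a gene and less RNA per cell cannot be told apart.

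Library totals ran from 10154187 to 11922979 counts. AURKB mRNA, the target, was left at 39.3% of the control level (log2 fold change -1.35 ± 0.08, SE). Of 10 markers of T-cell leukaemia, 9 were abundant enough to be tested and 1, PTCRA, was at most 1.15 CPM in any library. The list summed to 2944 to 3134 CPM in the controls and to 2834 to 3151 CPM with AURKB shRNA, but its members moved apart. NOTCH3 fell from 49.9 to 9.44 CPM (log2 fold change -2.40 ± 0.11), and TCF7, at 961 and 629 CPM, was not called. Scaled to library totals, NOTCH1 stood at 578 to 617 CPM in the controls and 754 to 788 CPM with AURKB shRNA. On that scale GATA3 stood at 116 to 120 CPM and 166 to 175 CPM. Of 9 myeloid and B-cell markers 4 were at 0 throughout, and the list summed to 24.3 to 28.1 CPM in the controls and 22.4 to 27.7 CPM with AURKB shRNA, mostly CD79A. The part of these markers in the results was not tested. The library shGFP replicate 1 stood apart in the sum of 10 fibroblast and epithelial markers. That sum was 27.2 CPM (counts scaled to library size) there and at most 1.29 CPM in each of the other 5 libraries. Most of it was COL1A2, with 17.8 CPM there and at most 0.258 CPM elsewhere. KRT8 (3.17 CPM), KRT18 (3.74 CPM) and KRT19 (2.21 CPM) were also raised there. EPCAM was lowest in that library (0.192 CPM), COL1A1 and CDH1 were not raised there, and 3 of these markers were at 0 throughout.

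Of the 10 genes, 4 rose and 2 fell with AURKB shRNA, and 4 were not called (edgeR quasi-likelihood test, adjusted p below 0.05). ULK1, GABARAPL2 and the lysosomal genes LAMP1 and CTSD rose by 23.1% to 38.4%. WIPI1 and GABARAPL1 fell to 48.0% and 33.9% of the control level. Across all tested genes 23.3% were called, 12.5% higher and 10.9% lower, and among genes with a mean of at least 5 CPM, as all 10 have, 27.5% were called. The share of the 10 genes called, 60%, lay above both. The 10 genes were chosen with earlier results of these data known, so this share is not independent of the data. With upper-quartile scaling, the share of higher genes among all calls was 38.8%, against 53.4% with the main scaling, and 3 of the 10 genes were then called higher and 2 lower. The median log2 fold change of the 10 genes was -0.01, beside 0.00 for all tested genes. At least 2-fold changes were called in 2 of the 10 genes and in 2.08% of all tested genes. Without shGFP replicate 1, the library with the COL1A2 and KRT reads, 3 of the 10 were called higher and 1 lower, beside 8.59% and 6.82% of all genes then tested. Leaving out any other single library gave 3 to 4 higher and 1 to 2 lower.

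**Figure D1:**
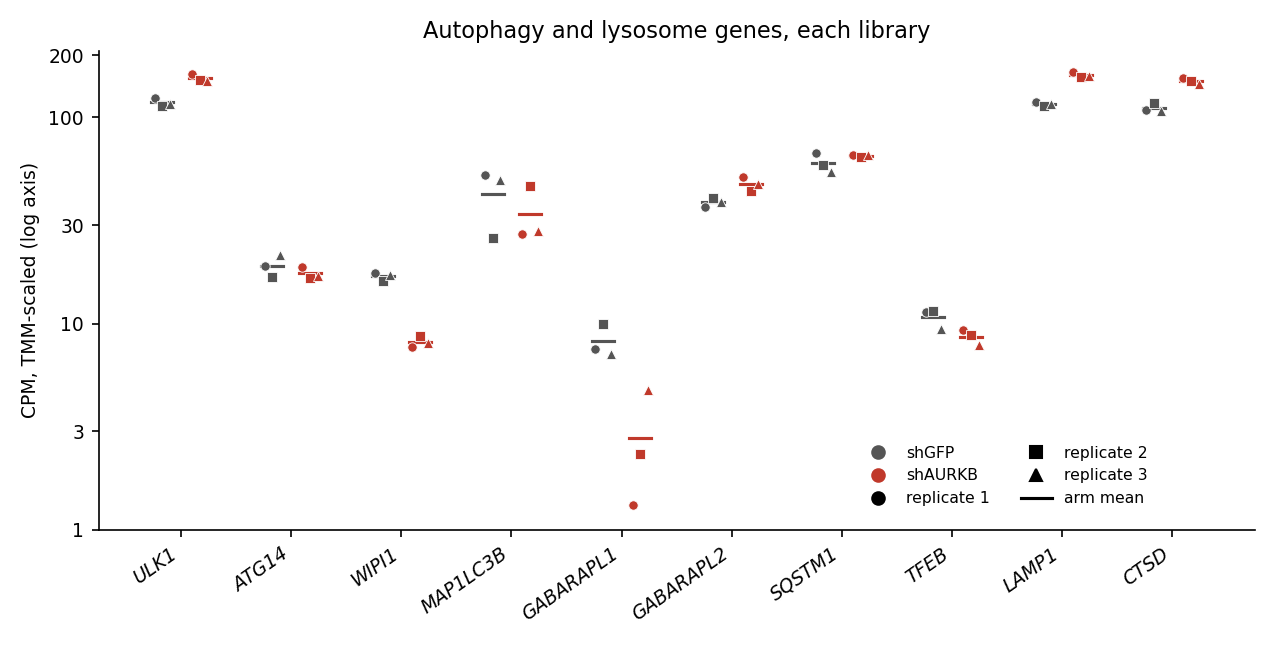
Level of each of the 10 genes in CPM (TMM-scaled, log axis) in the 3 shGFP (grey) and 3 shAURKB (red) libraries, with replicates as symbols and arm means as lines. The arms stood fully apart in 7 genes, as in 42.6% of all tested genes. GABARAPL1 had the widest spread among shAURKB libraries, from 1.31 to 4.74 CPM.

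ULK1, the kinase that starts autophagy (ENSG00000177169, GRCh38 chromosome 12, 131894651 to 131923167, plus strand), stood at 124, 114 and 116 CPM in the controls, in replicate order, and at 161, 151 and 151 CPM with AURKB shRNA. Every shAURKB library lay above every control. ULK1 rose by 30.9%, with a log2 fold change of 0.39 ± 0.05 (SE) and an adjusted p of 0.00341. ATG14, which targets the lipid kinase complex to autophagy (ENSG00000126775, chromosome 14, 55366392 to 55411858, minus strand), stood at 19.1, 16.8 and 21.4 CPM in the controls and at 18.8, 16.7 and 17.1 CPM with AURKB shRNA. The arms overlapped, and its log2 fold change of -0.12 did not pass the test (adjusted p = 0.463, 95% interval -0.39 to 0.14).

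WIPI1, the PI3P-binding protein gene (ENSG00000070540, chromosome 17, 68420948 to 68457513, minus strand), had 17.6, 16.0 and 17.3 CPM in the controls and 7.71, 8.68 and 8.06 CPM with AURKB shRNA. No shAURKB library exceeded 8.68 CPM and no control was below 16.0 CPM. Its log2 fold change of -1.06 ± 0.10 (adjusted p = 8.94e-04) was between -1.10 and -1.01 whichever library was left out. The last 1784 bases of WIPI1 overlap the end of ARSG, the arylsulfatase G gene on the opposite strand, itself a lysosomal enzyme gene. ARSG had 310, 304 and 385 reads in the controls and 159, 129 and 172 with AURKB shRNA, a log2 fold change of -1.08 ± 0.11 (adjusted p = 0.00115). No source used here states the strand setting of the counting, so reads from the shared stretch cannot be told apart, and how far each fall rests on them was not tested. The same holds for AC007780.1, a transcript on the opposite strand that spans all of WIPI1, had 23.8% as many reads as WIPI1 and was not called (log2 fold change -0.82 ± 0.60). ARSG was chosen for mention after its values were seen.

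**Figure D2:**
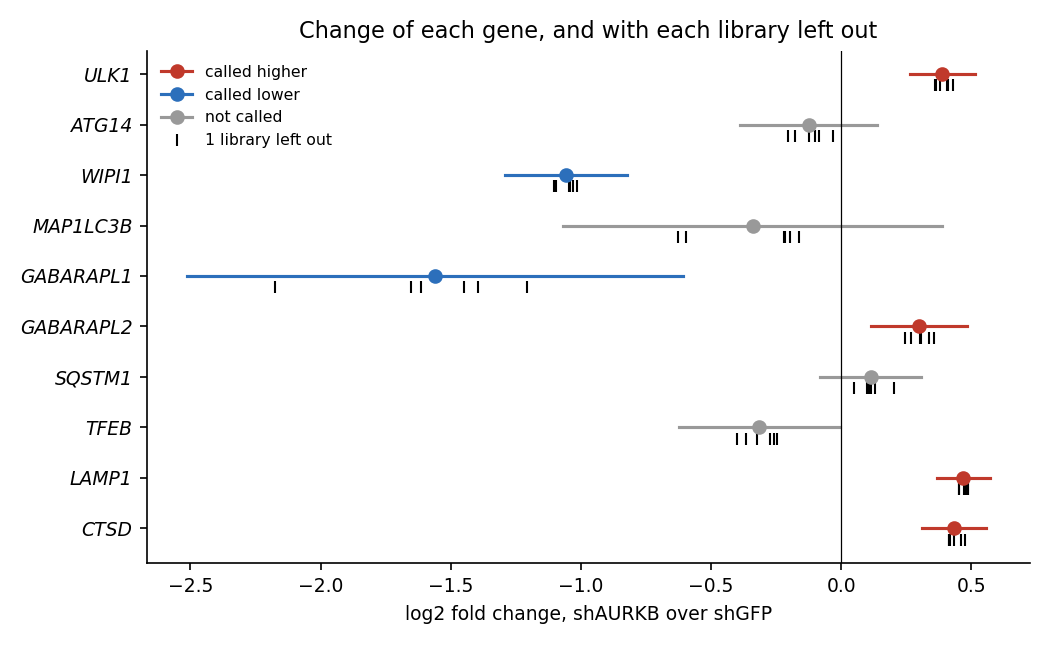
Log2 fold change of shAURKB over shGFP for each gene (dot, with its 95% interval as a line) and the value with each of the 6 libraries left out (ticks below). LAMP1, CTSD, ULK1 and WIPI1 moved little when a library was left out, whereas GABARAPL1 ran from -2.18 to -1.21.

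The ATG8 family split. GABARAPL1, the member known as a FOXO target in other tissues (ENSG00000139112, chromosome 12, 10212458 to 10223130, plus strand), had 80, 103 and 86 reads in the controls and 15, 24 and 50 with AURKB shRNA. That is 7.55, 10.0 and 7.11 CPM against 1.31, 2.34 and 4.74 CPM. All shAURKB libraries lay below all controls, but they differed 3.61-fold among themselves, and the within-arm spread of GABARAPL1 was greater than that of 96.6% of tested genes. The log2 fold change was -1.56 ± 0.40 (adjusted p = 0.0328). The call was lost without any 1 library other than shAURKB replicate 3 (adjusted p = 0.0585 to 0.10), and without that replicate, the highest of its arm, the log2 fold change was -2.18 (adjusted p = 0.0101). Over the alternatives its adjusted p ran from 0.00270 to 0.10.

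GABARAPL2, also called GATE-16 (ENSG00000034713, chromosome 16, 75566351 to 75577881, plus strand), went the other way. It stood at 36.9, 40.6 and 38.8 CPM in the controls and at 51.6, 44.1 and 47.4 CPM with AURKB shRNA. The arms did not overlap, though the lowest shAURKB library was close to the highest control. It rose by 23.1% (log2 fold change 0.30 ± 0.08, adjusted p = 0.0336), and the call was lost without any 1 library other than shAURKB replicate 2 (adjusted p = 0.0557 to 0.0930). The direction was the same in all 16 alternatives, with an adjusted p of 0.0331 to 0.106.

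MAP1LC3B, which encodes LC3B, the usual marker of autophagosomes (ENSG00000140941, chromosome 16, 87383995 to 87404779, plus strand), had 559, 267 and 599 reads in the controls and 309, 475 and 297 with AURKB shRNA. In CPM these are 52.8, 25.9 and 49.5 against 27.1, 46.3 and 28.2. Each arm held both low and high libraries, and the arms overlapped. The log2 fold change of -0.34 ± 0.31 did not pass the test (adjusted p = 0.469), and its 95% interval ran from -1.07 to 0.39, wide enough to hold either direction. Reads can be shared with MAP1LC3B2, a near-identical copy on chromosome 12, which had 40 to 58 reads per library and a log2 fold change of -0.03 ± 0.23.

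The authors' FPKM scale by library depth and by 1 length per gene. In FPKM the 7 ATG8 genes summed to 28.98, 26.4 and 29.5 in the controls. With AURKB shRNA they summed to 26.7, 28.6 and 26.7, so the sums of the arms overlapped. GABARAP held 35.1% to 39.6% of the family's sum in the controls and GABARAPL2 29.8% to 35.95%. GABARAPL1 held 1.56% to 2.45% of the sum in the controls and 0.308% to 1.10% with AURKB shRNA. For GABARAPL1 and GABARAP, reads and FPKM imply a length greater than the whole locus, so these shares are not shares of transcripts. In CPM, which use no length, GABARAPL1 had a control mean of 8.22 and GABARAP of 43.4. MAP1LC3C was listed at 0 in all libraries and MAP1LC3A had at most 6 reads.

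**Figure D3:**
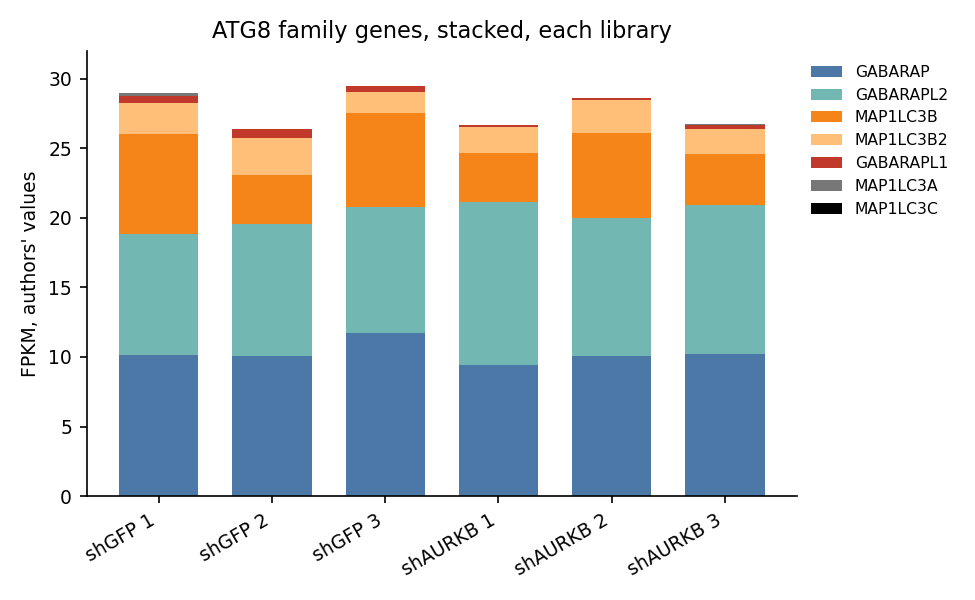
Authors' FPKM of the 7 ATG8 family genes, stacked for each library. GABARAP, GABARAPL2 and MAP1LC3B make up most of each bar, and the MAP1LC3B layer changes height between libraries of the same arm. GABARAPL1 is the thin red layer that holds at most 2.45% of the sum. Layer heights depend on the authors' lengths and are not shares of transcripts.

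GABARAPL1 is shown with the 250 bases upstream of its RefSeq start because it had the largest change of the 10 genes. These bases lie inside the deposited GABARAPL1 interval, which begins before them at 10212458. Capitals mark TGACGTCA, the palindrome known as the cAMP response element, which begins 30 bases before the start (GRCh38.p14, chr12:10212627-10212876, plus strand).
GABARAPL1: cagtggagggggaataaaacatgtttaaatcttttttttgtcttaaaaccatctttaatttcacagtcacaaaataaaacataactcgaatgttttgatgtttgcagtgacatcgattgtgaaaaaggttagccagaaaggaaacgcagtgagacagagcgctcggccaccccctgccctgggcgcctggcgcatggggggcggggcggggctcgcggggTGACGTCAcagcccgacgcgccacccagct
This palindrome was searched on both strands and occurs in 1.65% of the 35116 upstream windows of that length in the RefSeq table. It was in the windows of no other of the 10 genes. The match describes the letters and was not tested as a site.

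SQSTM1, which encodes the cargo receptor p62 (ENSG00000161011, chromosome 5, 179806398 to 179838078, plus strand), stood at 67.4, 58.9 and 54.6 CPM in the controls and at 66.0, 64.2 and 65.5 CPM with AURKB shRNA. The controls spanned the whole range of the shAURKB libraries. The log2 fold change of 0.11 ± 0.08 did not pass (adjusted p = 0.360), with a 95% interval of -0.08 to 0.31. SQSTM1 overlaps MGAT4B and MRNIP on the opposite strand by 555 and 2946 bases. MGAT4B, with 47.7% as many reads, was called lower (log2 fold change -0.43 ± 0.10, adjusted p = 0.0261). MRNIP, with 59% as many, was not called (-0.09 ± 0.09). Reads from the shared stretches cannot be told apart, and their part in the SQSTM1 value was not tested.

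TFEB, the transcription factor gene (ENSG00000112561, chromosome 6, 41683978 to 41736259, minus strand), had 11.3, 11.5 and 9.42 CPM in the controls and 9.28, 8.78 and 7.87 CPM with AURKB shRNA. The lowest control lay just above the highest shAURKB library, so the arms did not overlap. The log2 fold change of -0.31 ± 0.13 had an unadjusted p of 0.0471 and did not pass after adjustment (adjusted p = 0.130, 0.0903 to 0.307 over the alternatives). Of the 7 genes whose arms did not overlap, TFEB alone was not called, in a data set where 42.6% of tested genes had arms that did not overlap.

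The lysosomal genes LAMP1 and CTSD rose with the narrowest spread. LAMP1, a heavily glycosylated protein of the lysosomal membrane (ENSG00000185896, chromosome 13, 113297241 to 113323672, plus strand), stood at 119, 113 and 116.5 CPM in the controls and at 165, 157 and 159 CPM with AURKB shRNA. Every shAURKB library lay far above the highest control. LAMP1 rose by 38.4% (log2 fold change 0.47 ± 0.04, adjusted p = 8.35e-04). CTSD, the aspartic protease cathepsin D (ENSG00000117984, chromosome 11, 1752752 to 1763992, minus strand), stood at 109, 118 and 108 CPM in the controls and at 155, 151 and 145 CPM with AURKB shRNA. The arms again stood apart, and CTSD rose by 35.1% (log2 fold change 0.43 ± 0.05, adjusted p = 0.00220).

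Upstream sequences of LAMP1, CTSD and ATG14 are shown because they hold CACGTG, the E-box core that factors of both the MYC and the TFEB families are known to bind. The windows are the 250 bases before the RefSeq start, with each CACGTG in capitals. They lie at chr13:113296989-113297238 (plus strand), chr11:1763928-1764177 (minus strand) and chr14:55411831-55412080 (minus strand) of GRCh38.p14.
LAMP1: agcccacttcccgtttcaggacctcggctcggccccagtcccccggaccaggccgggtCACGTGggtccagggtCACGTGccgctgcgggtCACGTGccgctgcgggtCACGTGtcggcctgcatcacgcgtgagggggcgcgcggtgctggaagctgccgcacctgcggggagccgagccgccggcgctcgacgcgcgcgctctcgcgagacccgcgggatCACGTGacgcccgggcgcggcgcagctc
CTSD: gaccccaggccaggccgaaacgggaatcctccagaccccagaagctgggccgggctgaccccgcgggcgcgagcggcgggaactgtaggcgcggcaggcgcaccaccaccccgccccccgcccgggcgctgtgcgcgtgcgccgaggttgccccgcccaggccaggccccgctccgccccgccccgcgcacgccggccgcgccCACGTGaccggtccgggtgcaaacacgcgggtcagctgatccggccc
ATG14: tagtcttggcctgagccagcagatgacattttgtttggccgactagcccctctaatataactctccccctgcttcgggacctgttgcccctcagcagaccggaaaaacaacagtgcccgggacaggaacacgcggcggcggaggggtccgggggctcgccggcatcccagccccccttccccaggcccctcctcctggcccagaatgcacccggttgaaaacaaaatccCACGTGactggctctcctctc
LAMP1 holds 5 copies, from 192 to 28 bases before its start, and is the single window of the 35116 with 5 or more. CTSD holds 1 copy, 47 bases before the start, and ATG14 holds 1, at 21 bases. Both of these windows lie partly within the deposited gene intervals, which end at 1763992 and 55411858. CACGTG reads the same on both strands and occurs in 6.34% of all windows and in 3 of the 14 windows of the 10 genes, where SQSTM1 and TFEB have 3 windows each. Of the genes with it, LAMP1 and CTSD rose and ATG14 was not called, while ULK1 and GABARAPL2 rose and have no CACGTG in these windows. The longer TCACGTGA, which contains CACGTG, was found in 0.854% of windows and, among the 10 genes, in LAMP1 alone. The longer CLEAR palindrome, which contains TCACGTGA (0.308% of windows), TGATGNAA of the ATF4 composite element (3.14%) and GTAAACA of FOXO factors (2.98%) were not in the 14 windows on either strand. A match is a description of the letters, and no binding was measured.

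In the authors' FPKM the order of the 10 genes was the same at its top and bottom in the arms. In the controls the mean FPKM was 21.0 ± 1.00 (SD, n = 3) for CTSD, 15.1 ± 0.40 for LAMP1, 10.7 ± 0.52 for ULK1 and 9.06 ± 0.42 for GABARAPL2. MAP1LC3B (5.83 ± 2.00), SQSTM1 (4.38 ± 0.48) and ATG14 (3.78 ± 0.46) followed, and their library values overlapped, so their order is not settled. WIPI1 (2.50 ± 0.12), TFEB (1.16 ± 0.13) and GABARAPL1 (0.531 ± 0.10) were the lowest. With AURKB shRNA SQSTM1 (4.58 ± 0.06 FPKM) and MAP1LC3B (4.46 ± 1.43 FPKM) changed places within their spread, and WIPI1 (1.16 ± 0.07 FPKM) came closer to TFEB (0.900 ± 0.08 FPKM). The FPKM rest on 1 length per gene, set by the authors, which for GABARAPL1 exceeds its whole locus. The order between genes depends on these lengths and is not an order of transcript number.

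Around the 10 genes, 11 lists of the pathway by role held 169 genes, of which 156 were tested. Counting the 10, 24 of these rose, 22 fell and 110 were not called, and the median log2 fold change was 0.01. Leaving out 1 library took these counts to between 15 and 19 and between 11 and 15, and without shGFP replicate 1 they were 17 and 12. Without the 10 genes, 27.4% of the 146 tested were called, beside 23.3% of all genes, so the lists as a whole stood near the background. Each list was also counted without shGFP replicate 1, a choice made after seeing the data, where 17.1% of these 146 genes and 15.4% of all genes were called. The cargo receptors then had 3 higher and 4 lower, the lysosomal membrane 3 and 1, the vacuolar ATPase 4 and 1, and phagophore growth 1 and 1. Of the hydrolases 2 were then called, both lower, of the conjugation genes 1, lower, of the fusion genes 3, all higher, and of the ULK1 partners 1, lower. The 3 calls among the lipid kinase genes and the 2 among the TFEB relatives and nutrient-sensing genes were lost.

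**Figure D4:**
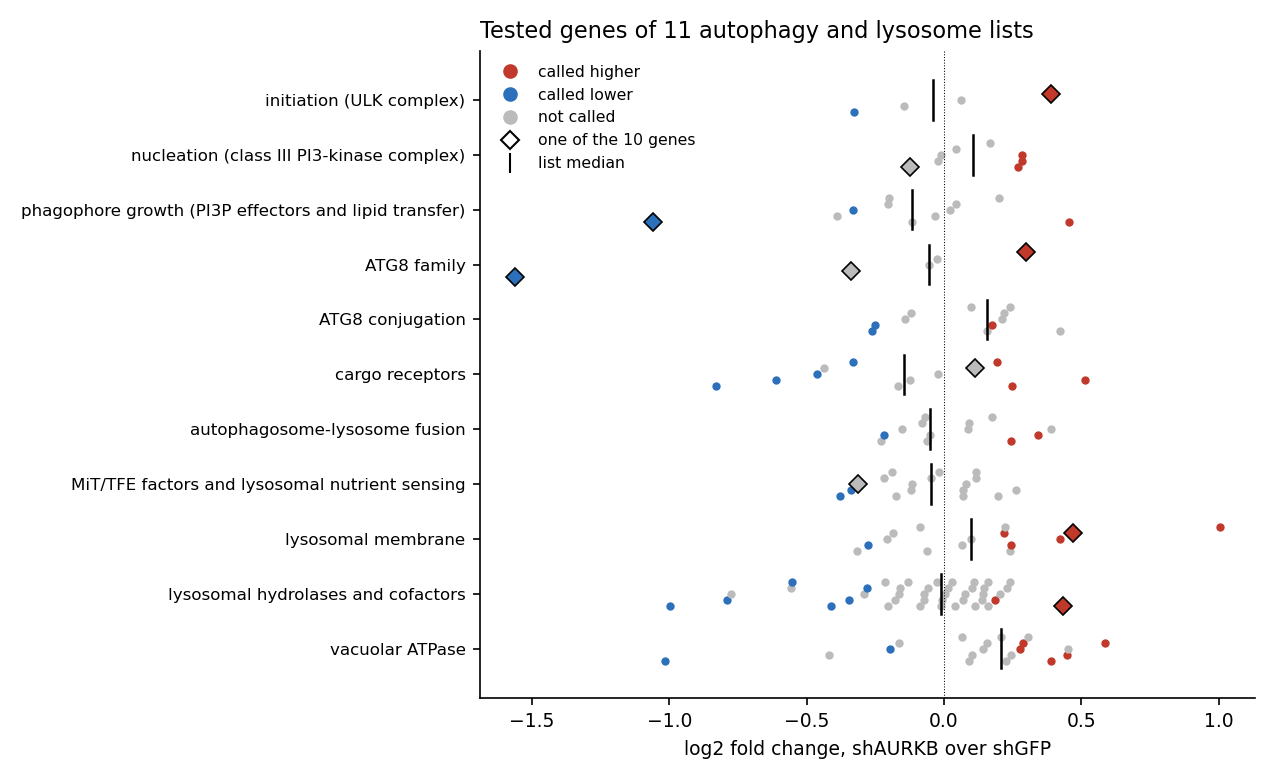
Log2 fold change of shAURKB over shGFP for each tested gene of the 11 lists, coloured by call, with the 10 genes as outlined diamonds and list medians as vertical bars (heights within a row have no meaning). GABARAPL1 and WIPI1 lie farthest left in the figure, and the vacuolar ATPase list has the highest median, 0.21.

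Among the other genes that start and extend the membrane, changes were small. The called share was 33.3% of the ULK1 partners, 42.9% of the lipid kinase genes, 20% of phagophore growth and 27.3% of the conjugation genes. Across all tested genes it was 23.3%. RB1CC1 (FIP200), the scaffold of the ULK1 complex, fell by 0.33 ± 0.06 on the log2 scale, 1 of 3 tested partners of ULK1. Of the 7 other tested genes of the class III lipid kinase complexes, with those of the UVRAG form that lacks ATG14, 3 rose, and the larger rises were those of UVRAG (0.29 ± 0.08, adjusted p = 0.0366, lost without any 1 library with an adjusted p of 0.0599 to 0.0992) and PIK3R4 (0.28 ± 0.07, adjusted p = 0.0228, lost without any 1 library other than shAURKB replicate 1, at 0.0559 to 0.0705). Beside WIPI1, 1 of 10 genes of phagophore growth rose, VMP1 (0.46 ± 0.08), and 1 fell, the lipid transfer protein gene ATG2B (-0.33 ± 0.05). Of the 11 enzymes and scaffolds that conjugate ATG8 proteins, 1 rose and 2 fell, ATG4C (-0.26 ± 0.07) and ATG16L2 (-0.25 ± 0.06). The ATG4C call was lost without any 1 library (adjusted p = 0.0748 to 0.120) and the ATG16L2 call without any 1 library other than shGFP replicate 1 (adjusted p = 0.0636 to 0.0767). GABARAP, at 43.4 CPM in the controls, had a log2 fold change of -0.05 ± 0.08 and was not called (0.024 without shGFP replicate 3).

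Of 11 tested cargo receptors beside SQSTM1, 3 rose and 4 fell. The called share was 63.6%, beside 23.3% of all tested genes, in a list chosen with earlier results of these data known. The mitophagy receptor genes BNIP3L (NIX) and BNIP3 fell most, from 62.8 to 35.3 CPM and from 45.1 to 29.5 CPM (log2 fold changes -0.83 ± 0.06 and -0.61 ± 0.07, adjusted p = 5.29e-04 and 0.00180). Both are known targets of the hypoxia factor HIF1. In fusion with the lysosome, 2 of 13 genes rose, the adaptor gene PLEKHM1 (0.34 ± 0.07) and the SNARE gene YKT6 (0.25 ± 0.04), and 1 fell. The called share here, 23.1%, was near that of all tested genes.

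Of TFEB's relatives and the nutrient-sensing genes of the lysosome surface, 16 were tested beside TFEB, of which 2 fell and 14 were not called. The called share was 12.5%, all lower. Of all tested genes 23.3% were called in either direction and 10.9% lower. TFEC, a relative of TFEB, fell by 0.38 ± 0.10 on the log2 scale, and FNIP1, the partner of folliculin, by 0.34 ± 0.09. The TFEC call was lost without any 1 library other than shGFP replicate 3 (adjusted p = 0.0673 to 0.115), and the FNIP1 call without any 1 library other than shAURKB replicate 1 (adjusted p = 0.0544 to 0.0859). In this family the control level was 17.6 ± 2.42 FPKM for TFEC, 4.46 ± 0.33 FPKM for TFE3 and 1.16 FPKM for TFEB, and MITF was at 0 reads in all 6 libraries. These FPKM depend on the authors' lengths, so they do not give ratios of transcripts between the genes.

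Beside LAMP1, 4 of 14 tested genes of the lysosomal membrane rose and 1 fell, a called share of 35.7%, beside 23.3% of all tested genes. LAPTM4A, a transmembrane protein of late endosomes and lysosomes, rose from 15.6 to 31.3 CPM, a log2 fold change of 1.00 ± 0.10 (adjusted p = 0.00129). OSTM1, the subunit of the lysosomal chloride transporter, rose by 0.42 ± 0.11. The OSTM1 call was lost without any 1 library other than shGFP replicate 1 and shAURKB replicate 2 (adjusted p = 0.0827 to 0.0971). Beside CTSD, 1 of 40 hydrolases and cofactors rose and 6 fell, a called share of 17.5%. NAGLU, which degrades heparan sulfate, fell by 1.00 ± 0.12, from 9.74 to 4.87 CPM, and the cathepsin gene CTSO by 0.79 ± 0.18, from 3.32 to 1.92 CPM, a call lost without any 1 library other than shGFP replicate 2 (adjusted p = 0.0638 to 0.0690). Of 19 subunits and accessory proteins of the vacuolar ATPase, the proton pump of the lysosome, 5 rose and 2 fell, a called share of 36.8%. ATP6V0E1 rose by 0.59 ± 0.05, from 45.0 to 67.6 CPM, and ATP6V1E2, an alternative form of subunit E, fell by 1.01 ± 0.10, from 17.7 to 8.77 CPM. VMP1, BNIP3L and ATP6V1E2 overlap the genes PTRH2, PNMA2 and RHOQ on the opposite strand, which were called in the same direction, and their reads in the shared stretch cannot be told apart. The same limit holds beside genes that were not called. ATG16L2 shares 6930 bases with FCHSD2 on the opposite strand, which had 113.5% as many reads (log2 fold change -0.11 ± 0.08). ATG2B shares 419 bases with GSKIP on the opposite strand, and GABARAP shares 2344 bases with AC120057.2 on the same strand.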

How the data were processed

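Whole-number counts per Ensembl gene were deposited for 50868 genes in 6 libraries, and the authors deposited FPKM beside them. HISAT2 2.0.4, StringTie 1.3.0 and edgeR, with GRCh38 (hg38), are named with no role or order, per the submitters' processing notes. No source used here states the strand setting or the treatment of multi-mapping reads.

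Genes were kept by filterByExpr (count of 10, total of 15) and scaled by TMM. The arms were compared by edgeR 4.0.16 (quasi-likelihood, two-sided, R 4.3.3) and p-values were adjusted by Benjamini-Hochberg across the 14818 genes kept, calling those below 0.05. CPM are TMM-scaled, except marker sums. The standard error is the log2 fold change over the square root of F. Libraries of 1 arm differed by 6.33 to 7.27 in chi-square per degree of freedom, more than counting noise. Depth was 10154187 to 11922979 counts, and reads without stated molecular identifiers are not independent molecules.

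The 10 genes and 11 lists were chosen with earlier results of these data known. From each list the text names the 2 called genes outside the 10 that changed most, and where the list had no call, the gene of smallest p. Names matched for 168 of 169 listed genes and an identifier for 1. Promoter windows are RefSeq's (GRCh38.p14), and all 10 genes matched. Other settings tried were each library omitted in turn, a block for replicate number, DESeq2 1.42.0, limma-voom (limma 3.58.1), scaling by upper quartile or RLE, and testing without the filter or with a minimum of 1 CPM in 3 libraries. FPKM were tested by limma-trend after log2(FPKM + 1), keeping 0.5 FPKM in 3 libraries, with a pseudocount of 0.1, or unfiltered.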

Additional observations from a re-analysis of the deposited data

How the results depend on the processing

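ULK1, WIPI1, LAMP1 and CTSD kept their direction and call in all 16 alternatives, with adjusted p of at most 0.0192, 0.0123, 0.00962 and 0.0141, and SQSTM1, MAP1LC3B, ATG14 and TFEB kept their direction and were called in none. The GABARAPL1 fold change ran from -2.18 to -1.21 on the log2 scale with 1 library left out, and its call was lost with the replicate block (-1.64) and on FPKM without a filter (-0.38); the FPKM filter removed the gene. The GABARAPL2 fold change ran from 0.24 to 0.36 with 1 library left out, and its call was lost with upper-quartile scaling (0.25), no low-count filter (0.31), the replicate block (0.30) and on FPKM with a pseudocount of 1 (0.22), of 0.1 (0.24) or without a filter (0.22). So 1 of the 10 genes was called lower with the replicate block and in each FPKM test, and 1 to 2 with a library left out. Of the listed pathway genes, 24 higher and 22 lower in the main test, 15 to 19 and 11 to 15 were called with a library left out, 12 lower with the replicate block, 14 lower with no low-count filter, and 14, 14 and 11 higher on FPKM with a pseudocount of 1, of 0.1 and without a filter. Of all genes, 1609 lower became 1027 with the replicate block and 998 to 1056 with a library left out, and 1847 higher became 914 on FPKM without a filter. The replicate block kept every library and the same 14818 genes. The cause of these differences in counts was not tested. GABARAP turned from -0.05 to 0.024 without shGFP replicate 3 and ran from -0.088 to 0.024 with a library left out. For the 20 other named genes, 249 of 319 values kept direction and call and 69 kept direction alone. Upper-quartile scaling moved the median of all genes from 0.00 to -0.06. The labels do not say what a replicate number marks, and same-numbered libraries did not deviate together (Pearson's r -0.08, -0.04 and -0.03 across genes), so the block pairs numbers only. GABARAPL1 had few reads, 15 in 1 library, and also a wide spread between the libraries of its shAURKB arm. The part of depth in its standard error was not tested.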

Other observations

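MAP1LC3B was not alone in changing level between libraries of 1 arm. Of 8118 genes with a mean of at least 20 CPM, 116 (1.43%) had a highest-to-lowest ratio of at least 1.7 within both arms. MAP1LC3B was among them, with ratios of 2.04 in the controls and 1.71 with AURKB shRNA. The minimum of 1.7 lies just below the lower of these ratios, so the place of MAP1LC3B among them follows from that choice. The share does not measure how rare its spread is. FBXO31, which overlaps it by 8148 bases on the opposite strand, had 299 reads in shAURKB replicate 3 and 537 to 692 elsewhere. The low libraries of MAP1LC3B were shGFP replicate 2 and shAURKB replicates 1 and 3. The cathepsin gene CTSB had a single low library, with 44.4 CPM in shGFP replicate 2 and 86.1 to 99.8 CPM in the other 5, and was not called (log2 fold change 0.24 ± 0.27).

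Some untested lysosomal genes had reads mainly in shGFP replicate 1, the library with the COL1A2 and KRT reads. LAPTM4B had 32 reads there and at most 2 in any other library, and LGMN, the legumain gene, had 27 there and 1 to 10 elsewhere. AC008695.1, a gene that spans FNIP1 on the same strand, had 81 reads in that library and 0 in the others, and FNIP1 itself had 406 reads there. The part of that library in these values was not tested. These genes were chosen for mention after their values were seen.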
